A study of Homo sapiens with 6 samples.

Results

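The aminoacyl-tRNA synthetase genes were described in sequenced RNA from a doxorubicin-resistant breast cancer line, MDA-MB-231-DR, with and without cyperotundone (CYT), a compound isolated from sedge. The members were the 37 genes of the count table whose symbol is one of a fixed list of cytosolic and mitochondrial synthetases, out of 58302 genes in all. Of the 37 genes, 19 encode enzymes of the cytosol, 16 encode enzymes of mitochondria, and 2 (GARS and KARS) supply both compartments. MDA-MB-231 is an established human line of triple-negative breast cancer, and the DR form is its resistant derivative, which the study kept in medium with low doxorubicin. There were 3 control libraries of MDA-MB-231-DR cells and 3 libraries of the same cells treated with CYT. The dose and duration of CYT for these libraries, and whether doxorubicin was present at harvest, are not given in the sources used here. All 6 libraries came from 1 resistant line, and the study describes its experiments in general as independent repeats without saying whether these libraries came from separate cultures. The p-values therefore measure the spread between these libraries, which may be technical.

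Each synthetase joins 1 amino acid to its tRNA, the step that sets the meaning of a codon. Most amino acids have a pair of genes, of which one serves the cytosol and the other is imported to charge the tRNAs of the mitochondrial genome. The enzymes fall into classes I and II, which have unrelated catalytic folds, and several cytosolic enzymes are held with the scaffold proteins AIMP1, AIMP2 and EEF1E1 in the multisynthetase complex. Many of the cytosolic genes are known targets of ATF4, the transcription factor of the amino acid and stress response, and WARS is known to be induced by interferon-gamma.

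Control libraries held 14050849 to 17770102 counts, and libraries of treated cells 13056270 to 14106017. Values are CPM, counts scaled to library size after TMM normalization, unless FPKM is named, and a gene was called when its edgeR adjusted p over all 15572 tested genes was under 0.05. The line markers VIM, CD44, EGFR, ANXA1, KRT8 and KRT18 were detected in every library, with VIM and EGFR called lower in CYT (log2 fold changes of -1.30 and -2.65). ESR1, PGR, CDH1 and KRT5, which this line is expected to lack, were at or below 1.14 CPM in every library. Of 10 markers of other cell types, PTPRC, CD3E, CD79A, LYZ, COL3A1 and ALB were below 1 CPM in every library and PECAM1 and VWF reached 2.54 CPM at most. COL1A1 was lower in CYT (log2 fold change of -2.16) and ACTA2 was higher (2.43). Of the 14 genes of the last 2 lists, CDH1, KRT5, PTPRC and ALB had 0 counts in every control library and 2 to 16 counts in every CYT library. The part of these markers in the results was not tested.

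The synthetase genes took a smaller share of the RNA after CYT. They held 0.459%, 0.409% and 0.434% of all counts in the 3 control libraries and 0.263%, 0.297% and 0.244% in the 3 CYT libraries, and the groups did not overlap. Summed over the 19 cytosolic genes the level was 3326 ± 497 CPM in control and 1935 ± 14.4 CPM in CYT (SD, n = 3). Over the 16 mitochondrial genes it was 692 ± 10.1 CPM and 389 ± 23.1 CPM. The sum of GARS and KARS was 381 ± 42.5 CPM and 336 ± 57.2 CPM, and there the libraries of the groups overlapped. Since each library is scaled to its own total, less RNA of these genes per cell and fewer cells that hold it cannot be told apart.

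All 37 genes passed the filter on low counts. After CYT 13 of them were called lower and 0 higher by edgeR, and DESeq2 also called 0 higher. Over all tested genes 12.9% were called lower and 15.7% higher. At an unadjusted p under 0.05 there were 17 genes lower and 0 higher, beside 19.4% and 21.5% of all tested genes. In addition, 11 of the 13 also had an absolute log2 fold change over 1, which with the lower call held for 12.2% of all tested genes. The median log2 fold change was -0.75 in the 37 genes and 0.01 in all tested genes, and 30 of the 37 lay below 0. The 3 treated libraries all lay below the 3 control libraries in 19 genes and all above them in 1, against 22.7% and 23.4% of all tested genes. The count of lower calls depended on single libraries. It was 8 without control replicate 1 and 7 without control replicate 3, where 7.41% and 7.36% of all tested genes were called lower. Without CYT replicate 1 it was 8, beside 8.48% of all genes, and without CYT replicate 3 it was 7, beside 7.63%. Without CYT replicate 2 it was 20, beside 17%. The share over all genes thus moved in the same direction as the count of synthetases. With the replicate number as a block, 18 genes were lower, beside 19.8% of all tested genes.

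**Figure D1:**
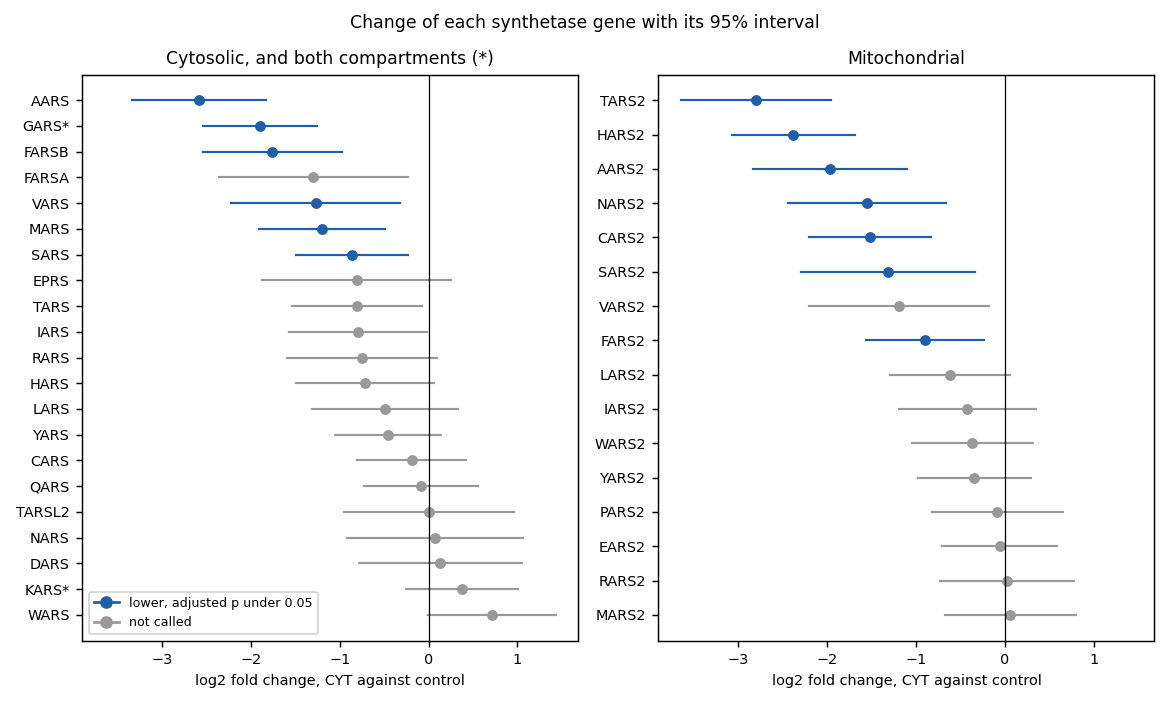
Log2 fold change of CYT against control (x axis) for each of the 37 genes (y axis), with the cytosolic genes and the 2 genes of both compartments (asterisks) on the left and the 16 mitochondrial genes on the right. Points are edgeR estimates, lines are 95% intervals, and blue marks the 13 genes called lower, which run from -2.80 (TARS2) to -0.86 (SARS).

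The cytosolic and mitochondrial genes had close medians. The median log2 fold change was -0.75 in the cytosolic genes, of which 5 of 19 were called lower, and -0.76 in the mitochondrial genes, of which 7 of 16 were called lower, beside 12.9% of all tested genes. Without 1 library these counts ran from 2 to 10 in the cytosolic and from 4 to 9 in the mitochondrial genes. Class II enzymes had 10 of 18 genes lower (median -1.10) and class I enzymes 3 of 18 (median -0.44). Without 1 library the class II count ran from 6 to 10 and the class I count from 1 to 9, with 9 in the fit without CYT replicate 2. With the GC content and length correction the class II and class I counts were 12 and 8, beside 22.5% of all tested genes. Over the fits without 1 library, 7.36% to 17% of all tested genes were called lower. EPRS, which joins an enzyme of each class, was counted in neither. No test was made of the difference between compartments or classes.

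Alanyl-tRNA synthetase had the largest fall among the cytosolic genes. AARS (ENSG00000090861, chr16:70252295-70289543, minus strand, GRCh38) was at 438, 225 and 282 CPM in control and 56.6, 46.6 and 54.7 CPM in CYT. Its lowest control library was above its highest CYT library, and it was 5.99-fold lower (log2 fold change -2.58, SE 0.34, edgeR adjusted p = 0.0011). AARS2 (chr6:44299654-44313326, minus strand) charges the mitochondrial alanine tRNA. It was at 32.4, 17.4 and 19.8 CPM in control and 5.64, 4.27 and 7.87 CPM in CYT, 3.91-fold lower (log2 fold change -1.97, SE 0.39, adjusted p = 0.0054). Both alanine genes thus fell without overlap of the groups.

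Among the other cytosolic genes, FARSB, VARS, MARS and SARS were called lower. FARSB encodes the beta subunit of phenylalanyl-tRNA synthetase and was at 46.5, 60.2 and 55.6 CPM in control and 12.1, 23.3 and 12.6 CPM in CYT (log2 fold change -1.76, SE 0.35, adjusted p = 0.0056). VARS, the valine enzyme, which associates with elongation factor eEF1, was at 665, 445 and 450 CPM in control and 250, 93.9 and 304 CPM in CYT (-1.27, SE 0.43, adjusted p = 0.050). The groups of both genes were apart, but VARS lay just inside the threshold, and CYT replicate 2 was far below the other CYT libraries. MARS, the methionine enzyme of the multisynthetase complex, was at 215, 110 and 172 CPM in control and 73.9, 67.8 and 74.7 CPM in CYT (-1.20, SE 0.32, adjusted p = 0.020). SARS, the serine enzyme, was at 672, 513 and 602 CPM in control and 370, 257 and 357 CPM in CYT (-0.86, SE 0.28, adjusted p = 0.044). SARS and VARS kept their call in 1 of the 6 fits that leave out a library and MARS in 2, whereas AARS and FARSB kept theirs in all 6.

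Of GARS and KARS, which each make a cytosolic and a mitochondrial enzyme from 1 gene, GARS was called lower and KARS was not. GARS (chr7:30594681-30634033, plus strand), for glycine, was at 170, 142 and 148 CPM in control and 43.9, 45.8 and 33.5 CPM in CYT, 3.73-fold lower (log2 fold change -1.90, SE 0.29, adjusted p = 0.0019). KARS, for lysine, was at 225, 191 and 266 CPM in control and 267, 356 and 262 CPM in CYT. Its log2 fold change was 0.38 with a 95% interval from -0.25 to 1.0, and its libraries overlapped.

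The largest change of all 37 genes was in a mitochondrial enzyme. TARS2 (chr1:150487364-150507609, plus strand), for threonine, was at 101, 70.0 and 77.4 CPM in control and 15.2, 6.98 and 13.5 CPM in CYT, 6.96-fold lower (log2 fold change -2.80, SE 0.38, adjusted p = 0.0012). HARS2, for histidine, was at 32.1, 42.3 and 33.9 CPM in control and 6.70, 7.90 and 6.20 CPM in CYT, 5.2-fold lower (-2.38, SE 0.31, adjusted p = 0.0011). In both genes every control library was far above every CYT library. NARS2, for asparagine, was at 14.3, 25.0 and 21.9 CPM in control and 4.8, 10.2 and 5.88 CPM in CYT (-1.55, adjusted p = 0.018). CARS2, for cysteine, was at 45.1, 42.3 and 47.2 CPM in control and 17.8, 11.3 and 18 CPM in CYT (-1.51, adjusted p = 0.0062). All CYT libraries of these genes were below all control libraries.

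SARS2 and FARS2 were nearer to the threshold. SARS2, for serine, was at 32.1, 14.9 and 32.7 CPM in control and 12.1, 5.91 and 14.1 CPM in CYT (-1.31, adjusted p = 0.049). FARS2, for phenylalanine, was at 41.5, 38.6 and 41.8 CPM in control and 25.8, 16.5 and 23.0 CPM in CYT (-0.90, adjusted p = 0.046). Each kept its call in 1 of the 6 fits without a library. NARS2 kept it in 3, and TARS2, HARS2, AARS2 and CARS2 kept it in all 6.

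**Figure D2:**
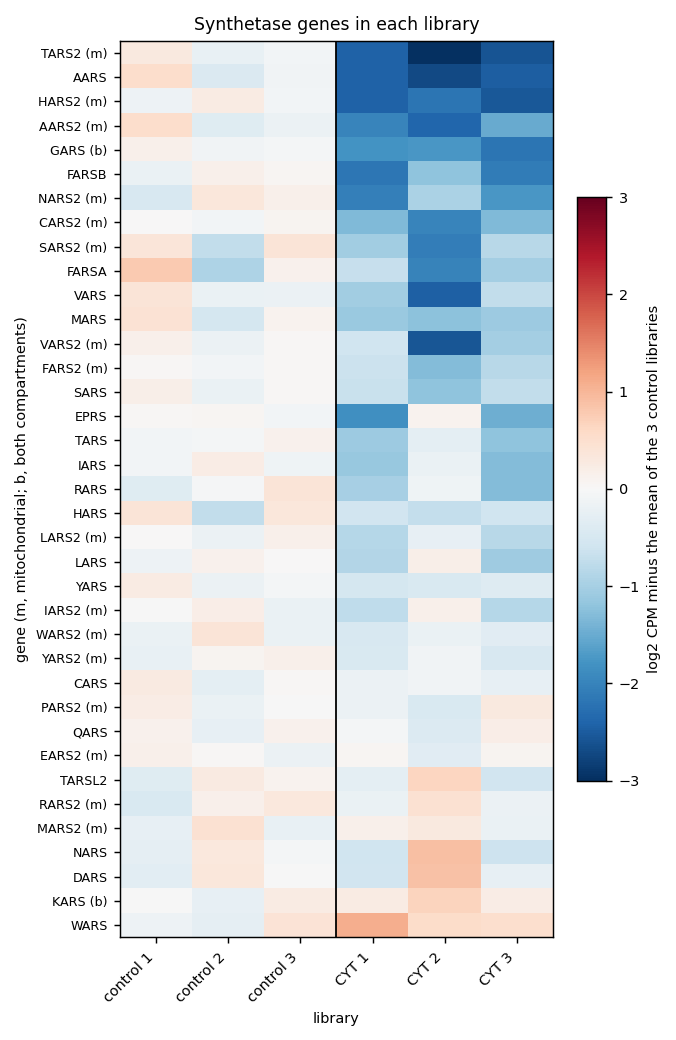
Level of each gene (rows, ordered by log2 fold change) in each library (columns), as log2 CPM minus the mean of the 3 control libraries, blue for lower and red for higher. The top rows are lower in all 3 CYT libraries, and from EPRS down to DARS several rows are low in CYT replicates 1 and 3 and at or above control in replicate 2.

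The other 24 genes were not called. FARSA, the alpha subunit that pairs with FARSB, was at 264, 80.7 and 168 CPM in control and 94.9, 38.4 and 75.0 CPM in CYT, and the groups overlapped through control replicate 2 (log2 fold change -1.30, adjusted p = 0.067, 0.0041 with the replicate block). VARS2 was at 84.8, 67.2 and 77.9 CPM in control and 50.7, 12.9 and 37.3 CPM in CYT (-1.19, adjusted p = 0.077, 0.012 with the block). In both genes replicate 2 was the lowest library of its group. EPRS, the fused enzyme for glutamate and proline, was at 75.9, 77.0 and 70.0 CPM in control and 20.7, 79.6 and 26.9 CPM in CYT (-0.81, adjusted p = 0.23, 0.046 with the block). TARS was at 108, 111 and 126 CPM in control and 54.4, 93.7 and 49.8 CPM in CYT (adjusted p = 0.091, 0.037 with the block). IARS was at 197, 242 and 191 CPM in control and 95.6, 183 and 85.1 CPM in CYT (adjusted p = 0.12, 0.025 with the block). In EPRS, TARS and IARS, CYT replicate 2 was the highest CYT library, and in EPRS it was above all control libraries.

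CYT replicate 2 stood in the same way in RARS, LARS, LARS2 and IARS2. RARS was at 60.9, 75.4 and 102 CPM in control and 38.9, 71.5 and 31.7 CPM in CYT, and LARS at 78.6, 95.4 and 88.4 CPM against 47.4, 97.9 and 41.6 CPM. LARS2 was at 50.7, 44.5 and 55.8 CPM against 27.8, 42.6 and 28.2 CPM, and IARS2 at 105, 122 and 92.6 CPM against 62.4, 118 and 58.2 CPM. None of the 4 passed the test, with adjusted p from 0.16 to 0.39 in edgeR, and each was called lower without CYT replicate 2. With all 6 libraries and the GC correction, RARS, LARS and IARS2 were called lower as well (adjusted p = 0.013, 0.032 and 0.033). NARS, at 55.2, 82.7 and 63.7 CPM in control and 43.9, 125 and 42.9 CPM in CYT, and DARS, at 57.7, 92.0 and 71.2 CPM against 48.3, 133 and 61.2 CPM, changed sign without that library (log2 fold changes of 0.07 and 0.13 with it, -0.64 and -0.44 without it). HARS, at 155, 71.3 and 152 CPM in control and 80.2, 72.1 and 78.2 CPM in CYT, was low in control replicate 2 instead (adjusted p = 0.15, 0.049 without that library).

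The remaining genes had intervals on both sides of 0. WARS, the tryptophan enzyme, was the 1 gene whose CYT libraries were all above control, at 126, 86.3 and 83.0 CPM against 52.7, 49.1 and 78.4 CPM (log2 fold change 0.71, SE 0.32, adjusted p = 0.13). After a correction for GC content and length it was called higher, with a log2 fold change of 0.96 and adjusted p = 0.014. YARS2 was at 55.6, 68.2 and 71.5 CPM in control and 47.3, 60.2 and 46.3 CPM in CYT (adjusted p = 0.39), and was called lower only with the GC correction and the replicate block together (adjusted p = 0.046). YARS and WARS2 were below 0 without overlap of the groups (log2 fold changes of -0.46 and -0.37) and were called in no alternative. CARS, PARS2, QARS, EARS2, TARSL2, RARS2 and MARS2 lay between -0.19 and 0.06.

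The way replicate 2 stood apart followed the base composition of the genes. In CYT, the difference of replicate 2 from the mean of replicates 1 and 3 on the log2 CPM scale had a Pearson correlation of -0.90 and a Spearman correlation of -0.89 with the GC content of the longest GENCODE transcript over the 37 genes, which share the same libraries. In control the values were -0.68 and -0.70. Over 12232 genes with a mean of at least 50 counts, Pearson's r was -0.78 in CYT and -0.55 in control, so the relation was also present in genes at large. Of the 18 genes of lowest GC content (41.2% to 49.9%), 17 were higher in CYT replicate 2 than the mean of the other CYT libraries and 4 were called lower. Of the 18 of highest GC content (50.8% to 62.6%), 16 were lower in that library than this mean and 9 were called lower, against 12.9% of all tested genes at any GC content. With GC content and length corrected, 21 of the 37 genes were lower, beside 22.5% of all tested genes, and with the replicate block as well 22 were, beside 22.2%. All 13 calls were kept in both fits.

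**Figure D3:**
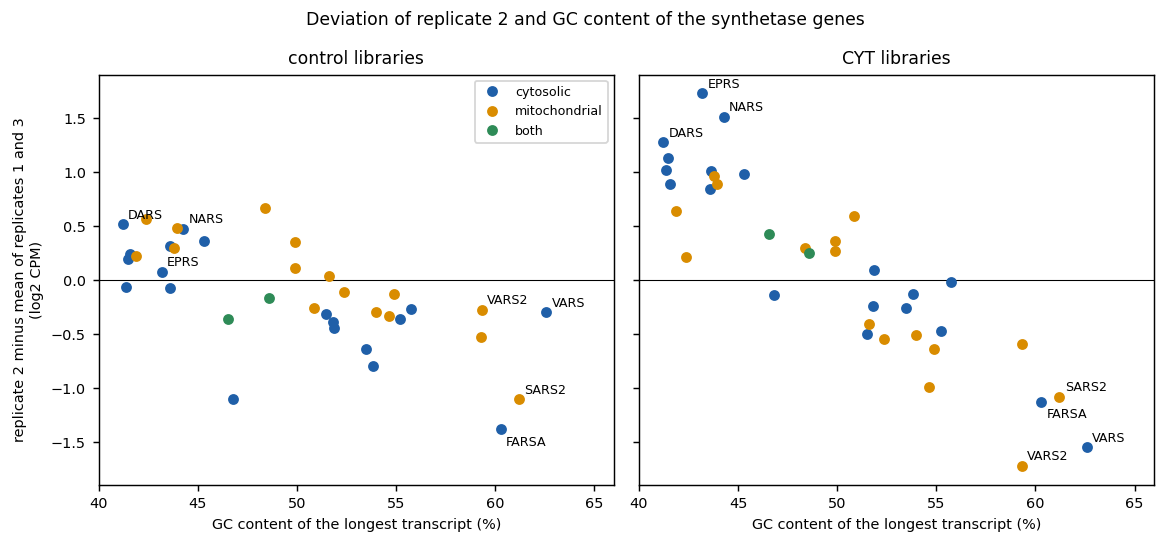
Log2 CPM of replicate 2 minus the mean of replicates 1 and 3 (y axis) against the GC content of the longest transcript (x axis) for the 37 genes, in control on the left and CYT on the right, colored by compartment. Low-GC genes such as EPRS, NARS and DARS lie above 0 and high-GC genes such as VARS and VARS2 below 0 in CYT, with r of -0.90.

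Levels between genes were compared per length, as FPKM. SARS was the highest of the 37 genes in both groups (104 ± 7.45 FPKM in control and 57.9 ± 8.52 FPKM in CYT, SD, n = 3) and TARSL2, a further cytosolic threonine enzyme, the lowest in control (0.704 ± 0.193 FPKM). AARS went from rank 2 in control (53.0 ± 15.2 FPKM) to rank 15 in CYT (9.07 ± 0.619 FPKM), and GARS from rank 6 to rank 19. KARS went from rank 4 to rank 2 (34.8 ± 5.18 and 46.3 ± 11.4 FPKM). Ranks were close in the middle of the order, where neighbours such as CARS (10.6 ± 1.35 FPKM) and MARS (10.6 ± 2.75 FPKM) differed by less than their spread in control. The gene length behind the FPKM was 3.25 times the GENCODE exonic length for QARS and 0.58 times for FARS2. With GENCODE exonic length in its place SARS and TARSL2 kept these places, and AARS went from rank 3 to rank 16.

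**Figure D4:**
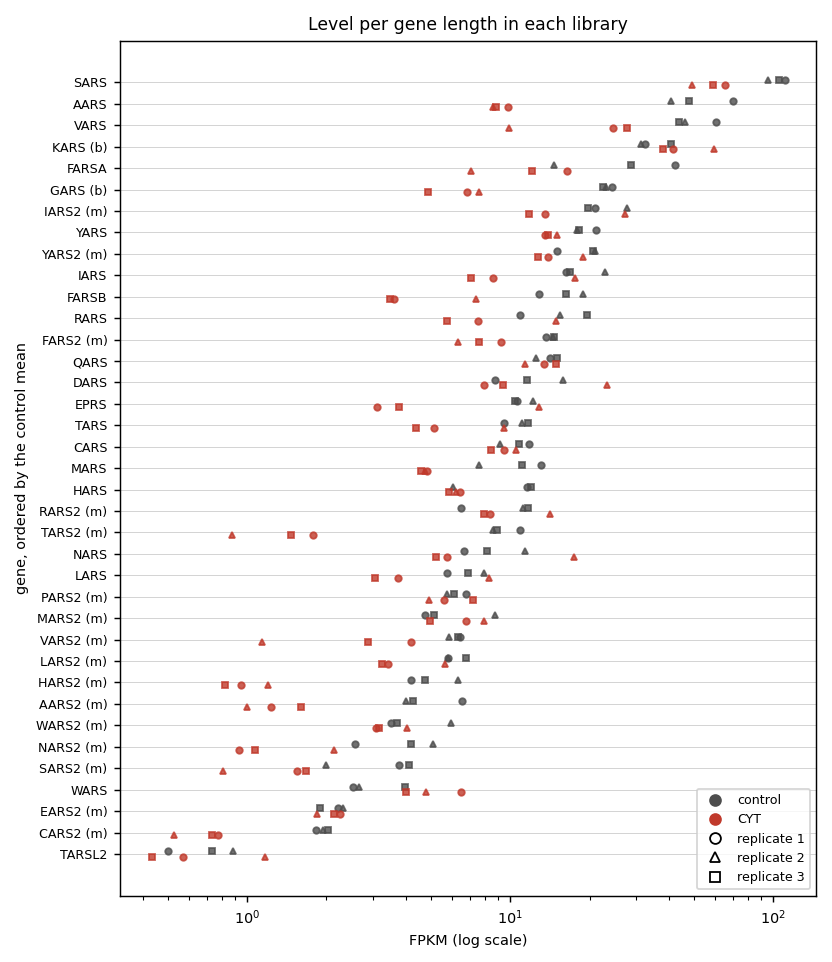
FPKM of each gene in each library (x axis, log scale), genes ordered by their control mean (y axis), with control in grey and CYT in red, and circles, triangles and squares for replicates 1, 2 and 3. SARS lies at the top near 104 FPKM in control, and the CYT points of AARS, GARS, TARS2 and HARS2 lie well to the left of control.

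By group mean, the cytosolic gene exceeded its mitochondrial partner per length in 13 of 16 pairs in control by FPKM and in 14 by GENCODE exonic length. By FPKM the exceptions were IARS, TARSL2 and WARS, and by exonic length TARSL2 and YARS. Some pairs were close. By FPKM the ratio of YARS to YARS2 was 1.41, 0.854 and 0.880 in control and that of LARS to LARS2 0.990, 1.37 and 1.01. TARS, FARSB, HARS and MARS were each below their partner in a control library. The FPKM ratio was higher in every CYT library than in every control library in 6 pairs, lower in 3 and overlapping in 7. These pairs are not all separate, since TARS2 and FARS2 each stand in 2 of them. The ratio of TARS to TARS2 was 0.868, 1.28 and 1.31 in control and 2.89, 10.8 and 2.97 in CYT, a difference of 2.0 on the log2 scale, and 1.37 without CYT replicate 2. The ratio of HARS to HARS2 was 2.74, 0.957 and 2.54 in control and 6.79, 5.17 and 7.15 in CYT, a difference of 1.75, and 1.26 without control replicate 2. Leaving out each library in turn moved the difference from 1.29 to 1.66 for NARS to NARS2 and from 1.12 to 1.52 for CARS to CARS2. This was added after seeing the data. The ratio of AARS to AARS2 went from 10.7 ± 0.520 to 7.33 ± 1.63 (SD, n = 3), with both genes lower. On the log2 scale this difference was -0.57, and -0.70 to -0.37 with each library left out in turn. A two-sided exact permutation test of 3 against 3 libraries cannot go below p = 0.1, and no other test of the ratios was made, so these values are a description.

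**Figure D5:**
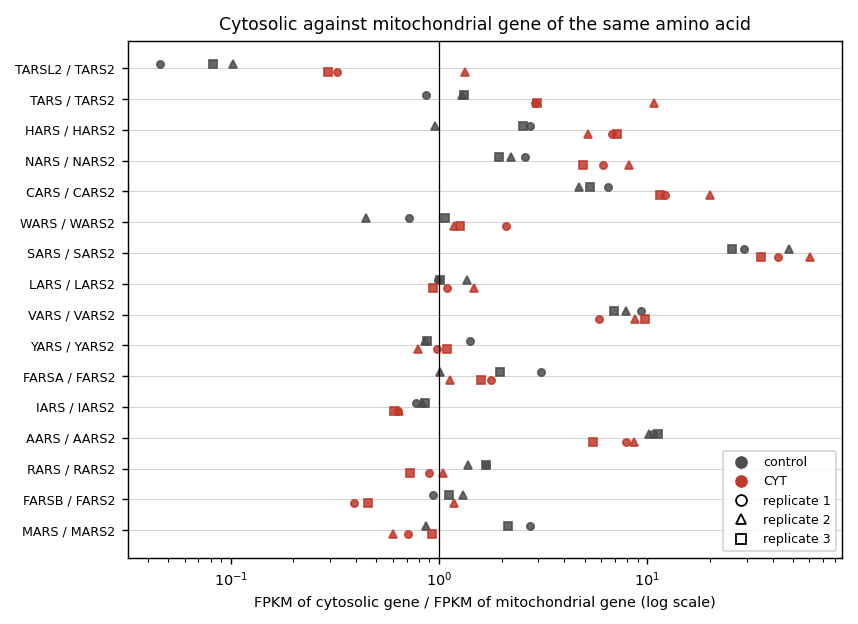
Ratio of the FPKM of the cytosolic gene to that of the mitochondrial gene of the same amino acid (x axis, log scale) in each library for 16 pairs (y axis), with control in grey and CYT in red, and the line at 1. The CYT points of 6 pairs, among them TARS to TARS2 and HARS to HARS2, lie to the right of all their control points.

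Several of the genes share exon bases with a neighbour in GENCODE, and the strand setting of the counting is not given in the sources used here, so reads of such neighbours cannot be told apart there. This holds for 20 of the 37 genes and for 8 of the 13 called lower. HARS and HARS2 lie head to head on chromosome 5, with 84 bases between their RefSeq starts and 437 bases of shared exon in opposite directions. HARS2 also shares 152 exon bases with ZMAT2, which went from 62.8 to 197 CPM while HARS2 fell. MARS shares 355 exon bases with DDIT3 on the opposite strand, which went from 10.7 to 48.3 CPM. The largest shared parts were on the same strand. They were 46.18% of the exon bases of SARS2, with AC011455.2, and 21.99% of those of VARS2, with GTF2H4. AC011455.2 had 0 counts in every library, and GTF2H4 went from 43.3 to 35.2 CPM. SARS2 also shares 10.8% with MRPS12 on the opposite strand, which went from 194 to 288 CPM. AARS, FARSB, SARS, VARS and FARS2 share none. The part of shared reads in these values was not tested.

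Of the 8 enzyme genes of the multisynthetase complex, 1 (MARS) was called lower, beside 12.9% of all tested genes, and the median log2 fold change of the 8 was -0.62. The other 7 were EPRS, IARS, LARS, QARS, RARS, DARS and KARS. The count was 5 of 8 (MARS, EPRS, IARS, LARS and RARS) without CYT replicate 2, beside 17% of all genes, and also 5 with the GC correction, beside 22.5%. It was 3 with the replicate block, beside 19.8%, and 0 without control replicate 1, control replicate 3, CYT replicate 1 or CYT replicate 3. Of 6 genes for scaffolds and eEF1 subunits, AIMP2, a scaffold, was lower, at 53.6, 63.3 and 64.4 CPM in control and 28.1, 22.9 and 26.9 CPM in CYT (log2 fold change -1.22, adjusted p = 0.011). With the replicate block 2 of these 6 genes were lower, beside 19.8% of all tested genes. AIMP1 and EEF1E1 had log2 fold changes of 0.11 and -0.11 and were not called.

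Other genes that make and use tRNA had calls in both directions. Of 18 genes of cytosolic tRNA maturation and use, 6 were lower and 1 was higher. XPOT, the exporter of tRNA from the nucleus, had a log2 fold change of -1.82, while CLP1, an RNA kinase, was higher (1.09). Of 20 genes of mitochondrial tRNA maturation and use, 3 were lower and 0 higher, with TSFM, a mitochondrial elongation factor, at -1.88 and CDK5RAP1, a tRNA modifying enzyme, at -1.38. Of 18 genes of tRNA gene transcription, 3 were lower and 1 was higher, with GTF3C2, a subunit of TFIIIC, at -2.14, POLR3B, a core subunit of RNA polymerase III, at -1.34 and GTF3C4, also of TFIIIC, at 0.95. The background was 12.9% lower and 15.7% higher. With the replicate block 8 of the 18 cytosolic tRNA genes, 4 of the 20 mitochondrial and 8 of the 18 transcription genes were lower, and the counts of higher genes were 1, 0 and 1. That fit called 19.8% of all tested genes lower and 20% higher.

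Of 26 tested genes of the ATF4 pathway other than synthetases, 5 were lower, 2 were higher and 19 were not called, beside 12.9% lower and 15.7% higher over all genes. ATF4 was at 387, 223 and 407 CPM in control and 103, 67.3 and 80.5 CPM in CYT (log2 fold change -2.02, adjusted p = 0.0027). CHAC1, a glutathione-degrading target of ATF4, was also lower, at 47.2, 11.9 and 15.0 CPM in control and 6.91, 2.28 and 5.16 CPM in CYT, with control replicate 1 far above the others. ATF3, a transcription factor of the stress response, was higher, at 14.8, 7.83 and 9.13 CPM in control and 37.5, 135 and 59.4 CPM in CYT, with CYT replicate 2 the highest. DDIT3, of the same response, was also higher (log2 fold change 2.17). The other genes called lower were TRIB3, PSPH and PYCR1 (-1.32, -1.23 and -1.25). With the replicate block 7 of the 26 were lower and 5 higher, beside 19.8% and 20% of all tested genes. Of 7 tested interferon-gamma genes, 4 were higher and 2 lower, beside the same background, with TAP1 at 1.91, GBP1 at -1.74 and GBP2 at -1.68. CXCL10, also called higher, was at 0, 0 and 0.216 CPM in control and 3.24, 5.62 and 3.34 CPM in CYT.

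The promoters were searched for the element TGATGNAA, which ATF4 with a CEBP partner is known to bind, on both strands of the 250 bases before each RefSeq start (GRCh38.p14). A window was found for 30 of the 37 genes. AARS2, DARS, LARS, TARSL2, VARS, VARS2 and YARS were not matched. The element was in 4 of the 30 genes, AARS, GARS, IARS and YARS2, and in 3.89% of all 27305 genes. The match of GARS was in 1 of its 2 windows and lay downstream of the RefSeq start of the other. CCAAT was in 16 of the 30 (37% of all genes) and CACGTG in 3 (7.73%), and none of the 4 matches of TGATGNAA overlaps a match of the other motifs. The stretches are shown because AARS and GARS were called lower and IARS and YARS2 were not. Each is written 5′ to 3′ on the strand of the gene, with the element or its reverse complement in capitals.
AARS, chr16:70289631-70289750, minus strand: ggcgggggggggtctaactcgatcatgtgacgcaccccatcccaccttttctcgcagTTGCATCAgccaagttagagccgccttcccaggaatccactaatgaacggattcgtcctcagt
GARS, chr7:30594834-30594863, plus strand: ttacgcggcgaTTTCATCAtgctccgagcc
IARS, chr9:92293698-92293727, minus strand: cccgcattttcagcgcgTTGCATCAcctcc
YARS2, chr12:32756076-32756105, minus strand: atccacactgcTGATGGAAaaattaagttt
A match is a description of the letters and not a measured binding site. Of the 4 genes with a match, the log2 fold changes were -2.58, -1.90, -0.79 and -0.34.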

How the data were processed

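RNA of 3 control and 3 CYT-treated MDA-MB-231-DR libraries was sequenced, and the sample titles gave the groups and replicate numbers. Raw counts for each gene were deposited by the authors, from reads aligned with Hisat2 to hg38 per the labels and methods, and FPKM values (counts per gene length and depth). The methods name Stringtie for FPKM and a program written as edge for gene quantification. Its strand setting and the annotation are not given in the sources used here. The 37 genes and all gene lists were chosen with earlier results of these data known.

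The count analysis used edgeR 4.0.16 (R 4.3.3), with filterByExpr at a minimum count of 10, TMM scaling, and a quasi-likelihood comparison of both groups without covariates over 15572 of 58302 genes, adjusted by the Benjamini-Hochberg method. A gene was called at an adjusted p under 0.05. The spread between libraries, which edgeR names the biological coefficient of variation, was 37.5% and may be partly technical. This spread and the 13056270 to 17770102 counts per library set the precision. Alternatives were DESeq2 1.42.0, limma 3.58.1 on log2(FPKM + 1) and log2(FPKM + 0.1), upper-quartile scaling, other filters, protein-coding genes only, a correction for GC content and length, the replicate block, and each library left out. The code was tested on simulated counts. Loci, exon overlaps and GC content came from GENCODE 29, and exact tests from SciPy 1.17.1.

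The replicate numbers in the labels were checked for pairing. Deviations of same-numbered libraries from their group means correlated at 0.19, 0.46 and 0.12 for replicates 1, 2 and 3. However, control 1 with CYT 3 (0.30) and control 3 with CYT 1 (0.20) correlated more than pairs 1 and 3. The deviation of replicate 2 followed GC content in both groups, and the part of this in the 0.46 was not tested. These values do not settle whether the numbers pair the libraries. The reported calls come from the fit without the replicate block. The fit with the block is given beside the synthetase genes whose call it changes and as counts for the complex, tRNA and ATF4 lists. With it KRT18 was also called lower (edgeR adjusted p = 0.019, 0.055 without it), and the interferon-gamma counts stayed at 4 higher and 2 lower. Values per library are given for all genes that were called or whose call changed under an alternative, and of the other lists the 2 largest called rises and falls are named, and of the marker lists every gene, with TRIB3, PSPH, PYCR1, AIMP1 and EEF1E1 named after their values were seen. Of the genes this rule names, 1 is not reported here.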

Additional observations from a re-analysis of the deposited data

How the results depend on the processing

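The 13 genes called lower kept their direction in all 16 alternatives, and AARS, AARS2, CARS2, FARSB, GARS, HARS2 and TARS2 (7 genes) also kept their call in all of them. The number of lower calls was 21 with the GC content and length correction, 22 with that correction and the replicate block, and 7 to 20 over the fits without 1 library. It was 9 with upper-quartile scaling, with the 5 CPM filter or in protein-coding genes only. Those fits called 10.4%, 12.2% and 12.5% of all tested genes lower. Higher calls were 1 (WARS) with either GC correction. Cytosolic lower calls were 5 as reported, 3 in protein-coding genes only, with upper-quartile scaling or with the 5 CPM filter, 9 with the replicate block, 11 with either GC correction, and 2 to 10 without 1 library. Mitochondrial lower calls were 7 as reported and 4 to 9 without 1 library. Over all tested genes 19.8% were called lower with the replicate block, 22.5% and 22.2% with the GC corrections, and 7.36% to 17% without 1 library. With the replicate block 18 genes were lower, and beside the gained calls of FARSA, VARS2, EPRS, TARS and IARS it changed no other call among the 37 genes. Upper-quartile normalization moved the median of all genes to 0.16 and that of the 37 genes to -0.60, which is -0.76 relative to all genes. Under that normalization the cytosolic median was -0.60 and the mitochondrial -0.61. With no filter the median of the 37 genes was -0.84, which is -1.25 relative to all genes, against -0.75 as reported. Without 1 library the median of the 37 genes ran from -0.83 to -0.56, the cytosolic from -0.91 to -0.56 and the mitochondrial from -0.83 to -0.71. The causes were not tested.

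9 genes that were not called changed sign under some alternatives, with none called after it. With the GC correction the log2 fold change was 0.066 for CARS, -0.035 for DARS, 0.15 for EARS2, -0.19 for MARS2, -0.048 for NARS, 0.23 for QARS, -0.26 for RARS2 and -0.086 for TARSL2. With the GC correction and replicate block the log2 fold change was 0.058 for CARS, -0.065 for DARS, 0.15 for EARS2, -0.17 for MARS2, -0.13 for NARS, 0.23 for QARS, -0.24 for RARS2 and -0.11 for TARSL2. With upper-quartile normalization the log2 fold change was 0.093 for EARS2, 0.064 for PARS2 and 0.065 for QARS. With a mean of at least 5 CPM the log2 fold change was 0.043 for EARS2, 0.016 for PARS2 and 0.017 for QARS. In protein-coding genes only the log2 fold change was 0.023 for EARS2. With no filter the log2 fold change was -0.018 for MARS2, -0.026 for NARS, -0.056 for RARS2 and -0.086 for TARSL2. With limma on log2(FPKM + 1) the log2 fold change was -0.057 for NARS and -0.00081 for TARSL2. With limma on log2(FPKM + 0.1) the log2 fold change was -0.079 for NARS and -0.037 for TARSL2. With the replicate block the log2 fold change was -0.10 for NARS and -0.060 for TARSL2. Without 1 library it ran from -0.44 to 0.39 for DARS, -0.16 to 0.062 for EARS2, -0.079 to 0.31 for MARS2, -0.64 to 0.33 for NARS, -0.29 to 0.072 for PARS2, -0.21 to 0.054 for QARS, -0.23 to 0.16 for RARS2 and -0.46 to 0.24 for TARSL2.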
